A study of Homo sapiens with 12 samples.

Results

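Huh7 cells treated with GO–Rg3–DOX were compared directly with Huh7 cells treated with bare GO. Samples were taken by their treatment label, which gave 6 of the 12 samples of the series, 3 exposed to GO–Rg3–DOX at 100 µg/mL and 3 exposed to bare GO at 400 µg/mL, each for 6 h. Of the 63677 genes in the deposited table, 17092 reached 10 counts in 3 or more of the 12 samples and were tested. Huh7 is an established line of human liver cancer cells. GO is graphene oxide, an oxidized carbon sheet used as a drug carrier, Rg3 is a ginseng saponin bound to the GO surface, and DOX is doxorubicin loaded onto GO–Rg3. The groups therefore differed in the Rg3 coating, in the drug and in the dose of material, which was lower for GO–Rg3–DOX, and these cannot be told apart here. The other 6 samples, 3 untreated and 3 treated with 400 µg/mL GO–Rg3, entered the same model and are given only to place a level. All 12 samples came from the same cell line, and the labels do not say whether replicates came from separate cultures, so p-values measure the spread between these samples, which may be technical.

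Several regulatory systems that react quickly to stress met in this comparison. Doxorubicin is an anthracycline that intercalates into DNA, poisons topoisomerase II and displaces histones from chromatin. Hypoxia-inducible factors (HIF) bind the core ACGTG near genes of glycolysis, glucose transport and iron handling. The aryl hydrocarbon receptor (AhR) binds GCGTG and drives detoxifying enzymes such as CYP1A1. The zinc sensor MTF1 binds metal response elements with the core TGCNCNC and drives the metallothioneins, small proteins that store zinc and copper. Immediate early genes such as FOSB and EGR1 are switched on within minutes of a stimulus, in part through the cAMP response element TGACGTNA.

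Promoters of 6 called genes from these systems are shown, chosen after their values were seen, as the 250 bases before the annotated start in RefSeq on GRCh38.p14, a later build than the one used for the counts. Each is written 5′ to 3′ on the strand of its gene, and capitals mark matches to the motif named, on either strand. Many other called genes of these systems had larger differences than MT2A and are not shown. Among them are HILPDA, EGR3, MT1E, MT1F, EGR2, SLC30A1, PFKFB4, PPFIA4, PFKFB3, KLF2, JUND and EGR1. The RefSeq table had no entry for HILPDA, EGR3 and MT1E.

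BHLHE40 (ACGTG, chr3:4979187-4979436, plus strand): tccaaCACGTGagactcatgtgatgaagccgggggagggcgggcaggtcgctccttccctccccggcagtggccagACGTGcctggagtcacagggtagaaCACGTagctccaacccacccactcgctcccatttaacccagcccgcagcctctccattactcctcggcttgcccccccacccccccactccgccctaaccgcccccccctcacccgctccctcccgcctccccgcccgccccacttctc

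MIR210HG (ACGTG, chr11:568458-568707, minus strand): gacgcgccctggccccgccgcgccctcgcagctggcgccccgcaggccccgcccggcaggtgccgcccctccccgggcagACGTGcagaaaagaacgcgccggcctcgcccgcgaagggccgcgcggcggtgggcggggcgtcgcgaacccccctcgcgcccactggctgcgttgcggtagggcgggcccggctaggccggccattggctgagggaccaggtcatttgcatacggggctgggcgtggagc

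CYP1A1 (GCGTG, chr15:74725529-74725778, minus strand): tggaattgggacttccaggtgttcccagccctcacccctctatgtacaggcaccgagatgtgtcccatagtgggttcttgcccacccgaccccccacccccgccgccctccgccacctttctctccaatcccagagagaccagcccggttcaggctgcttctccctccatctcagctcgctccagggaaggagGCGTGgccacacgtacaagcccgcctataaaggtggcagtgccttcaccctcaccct

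MT1X (TGCNCNC, chr16:56682220-56682469, plus strand): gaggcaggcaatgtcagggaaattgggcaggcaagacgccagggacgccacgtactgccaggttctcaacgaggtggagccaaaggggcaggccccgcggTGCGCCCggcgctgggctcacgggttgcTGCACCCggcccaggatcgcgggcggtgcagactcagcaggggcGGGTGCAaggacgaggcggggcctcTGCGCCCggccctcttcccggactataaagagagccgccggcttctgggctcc

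MT2A (TGCNCNC, chr16:56608334-56608583, plus strand): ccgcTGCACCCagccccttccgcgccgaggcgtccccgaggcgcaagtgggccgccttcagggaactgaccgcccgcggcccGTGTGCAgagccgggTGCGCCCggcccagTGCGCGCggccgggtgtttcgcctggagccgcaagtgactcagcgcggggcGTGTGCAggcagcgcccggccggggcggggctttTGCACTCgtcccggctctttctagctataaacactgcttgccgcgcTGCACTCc

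FOSB (TGACGTNA, chr19:45467746-45467995, plus strand): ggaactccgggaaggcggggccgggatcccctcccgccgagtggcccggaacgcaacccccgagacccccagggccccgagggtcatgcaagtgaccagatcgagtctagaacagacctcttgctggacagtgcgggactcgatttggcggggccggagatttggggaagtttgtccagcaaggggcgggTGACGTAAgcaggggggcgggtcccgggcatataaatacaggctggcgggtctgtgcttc

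BHLHE40 held 4 matches to ACGTG over both strands, of which 2 overlapped in 1 palindrome, and MIR210HG held 1. CYP1A1 held 1 match to GCGTG, MT1X held 4 and MT2A 7 to TGCNCNC, and FOSB held 1 to TGACGTNA. Among all 35116 promoter windows of that length, 18.5% held ACGTG, 32.2% GCGTG, 49.1% TGCNCNC and 2.67% TGACGTNA. Of the 25 tested HIF target genes, 22 had a window in the table and 14 of them (63.6%) held ACGTG. For the AhR targets 5 of 6 matched genes held GCGTG, for the metallothionein and zinc list 4 of 6 held TGCNCNC, and for the immediate early genes 5 of 18 (27.8%) held TGACGTNA, where a gene with several windows counted once if any of them matched. A match describes letters in this window and not a bound site.

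Compared with GO, 1628 genes (9.52% of those tested) were higher and 3148 (18.4%) were lower after GO–Rg3–DOX. A gene was called at an adjusted p below 0.01, by the quasi-likelihood test of edgeR, adjusted over all tested genes by the Benjamini-Hochberg method, and an absolute log2 fold change over 1. Every test named below is that test unless another is named, levels are TMM-scaled CPM (counts divided by the effective library size), SE is a standard error, and log2 fold changes are GO–Rg3–DOX minus GO. At any fold 9546 genes (55.9%) had an adjusted p below 0.01, and for 11557 genes (67.6%) no sample of one group reached into the other. Falls outnumbered rises beyond a log2 fold change of 2, with 464 higher and 853 lower genes, while beyond 4 there were 132 higher and 32 lower, many of the former with few or no counts after GO. The median over all genes was -0.02. When libraries were scaled by their totals alone this median shifted by -0.30, to 841 higher and 4398 lower genes, so that higher genes made up 16.1% of the calls against 34.1% with TMM. Counts are relative within a library, and in bulk samples fewer cells and less RNA per cell cannot be told apart.

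**Figure D1:**
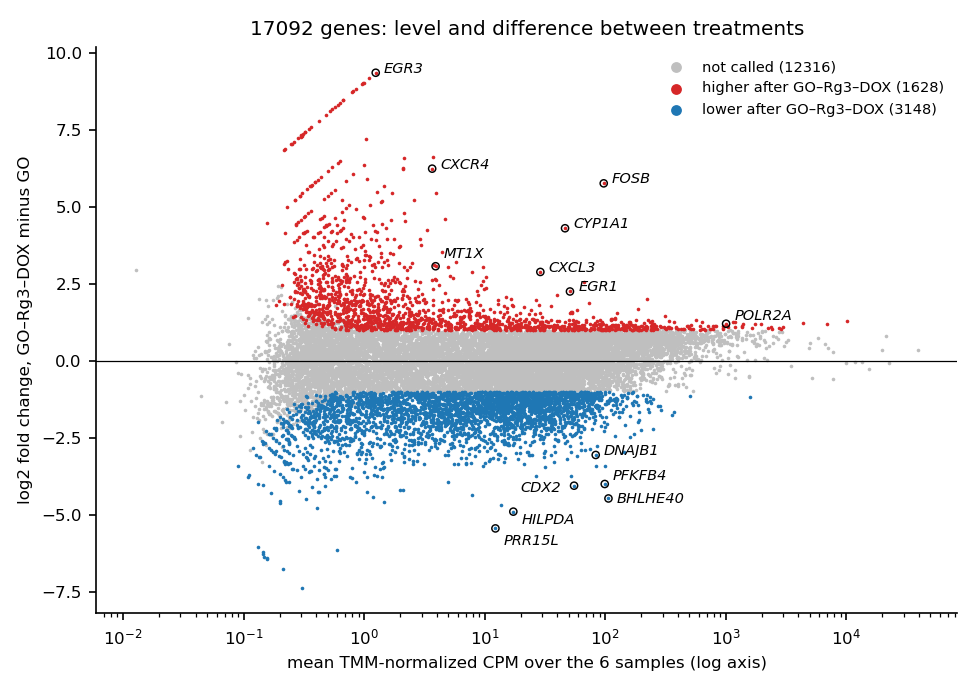
Each point is 1 of the 17092 genes tested, placed by its mean level over the 6 samples (TMM-normalized CPM, log axis) and its log2 fold change, GO–Rg3–DOX minus GO. Red points are the 1628 genes called higher, blue points the 3148 called lower, grey points the rest. Circled genes are described in the text, and the slanted rows of points at the upper left are genes with few or no counts after GO, whose fitted value depends on the prior count.

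Total counts were 28697698 to 34755740 per sample after GO and 30561558 to 32936070 after GO–Rg3–DOX, so depth overlapped between the groups. On the first principal component of log2 CPM (65.4% of the variance of all 12 samples) the GO–Rg3–DOX samples lay at 97.8 to 108.6 and the GO samples at -33.2 to -16.6. GO replicate 1 stood apart from the other 2 GO samples in its mitochondrial share, given below, and without it 1939 genes were higher and 3225 lower. Markers of hepatocyte-like cells were present, 12 of 12 above 1 CPM, with a summed level of 15830 to 18640 CPM after GO and 32880 to 37610 CPM after GO–Rg3–DOX. Leukocyte markers summed to 1.44 to 1.81 CPM and 3.29 to 3.85 CPM in these groups with PTPRC at 0 after GO and at most 0.0381 CPM after GO–Rg3–DOX. Fibroblast markers summed to 4.74 to 6.36 and 13.0 to 16.3 CPM, and endothelial markers to 0.0535 to 0.352 and 0.495 to 0.6999 CPM with PECAM1 at 0. Their part in the results was not tested.

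Genes that respond to low oxygen and set the rate of glycolysis were lower after GO–Rg3–DOX. Of 25 tested HIF target genes 14 fell (56%, against 18.4% of all tested genes) and 0 rose. Their median log2 fold change was -1.12 against -0.02 over all genes. Against untreated cells the list median was 0.75 after GO, with 8 genes called higher and 0 lower. After GO–Rg3–DOX it was 0.09, with 3 called higher and 5 lower. PFKFB4 (chromosome 3 from 48555117 to 48599448 on GRCh37), a kinase that raises the main activator of glycolysis, was at 189, 187 and 185 CPM after GO and 13.5, 10.9 and 10.8 CPM after GO–Rg3–DOX. All 3 GO samples lay close together and far above all 3 GO–Rg3–DOX samples, a log2 fold change of -3.997 (SE 0.12, adjusted p = 3.9e-12). PPFIA4, a scaffold protein, was at 22.5, 23.4 and 23.0 CPM after GO and 2.51, 3.06 and 2.90 CPM after GO–Rg3–DOX, again without overlap, a log2 fold change of -3.02 (SE 0.15, adjusted p = 5.2e-10). PFKFB3, the sister kinase of PFKFB4, was at 236, 261 and 263 CPM after GO and 30.7, 32.7 and 35.3 CPM after GO–Rg3–DOX, a log2 fold change of -2.94. The oxygen sensor EGLN1 (-2.75), the hexokinase HK2 (-1.82), the pyruvate dehydrogenase kinase PDK1 (-1.82), the glucose transporter SLC2A1 (-1.66) and the angiogenic factor VEGFA (-1.23) also fell. VEGFA was at 165, 174 and 189 CPM after GO and 61.2, 78.5 and 84.6 CPM after GO–Rg3–DOX. The drop did not take in the whole list: NDRG1, a stress protein, was at 803, 802 and 825 CPM after GO and 919.9, 853 and 884 CPM after GO–Rg3–DOX, a log2 fold change of 0.13 with adjusted p = 0.2 by edgeR, and the glycolytic enzymes ENO1, ALDOA and PGK1 had log2 fold changes of 0.43, 0.48 and 0.24 and were not called.

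HIF-related genes outside that list were among the 10 largest falls of genes with at least 1 CPM. HILPDA (chromosome 7 from 128095903 to 128098472), a lipid droplet protein induced by hypoxia, was at 35.9, 33.6 and 31.0 CPM after GO and 0.948, 1.15 and 1.26 CPM after GO–Rg3–DOX, a log2 fold change of -4.89 (SE 0.15, adjusted p = 4.8e-12). MIR210HG (chromosome 11 from 565657 to 568457), the host transcript of a hypoxia-induced microRNA, was at 28.2, 25.1 and 26.1 CPM after GO and 1.20, 0.863 and 1.07 CPM after GO–Rg3–DOX, a log2 fold change of -4.67 (SE 0.18, adjusted p = 4.1e-11). BHLHE40 (chromosome 3 from 5021122 to 5027008), a transcriptional repressor of the clock and hypoxia responses, was at 189, 205 and 218 CPM after GO and 9.27, 9.27 and 9.11 CPM after GO–Rg3–DOX, a log2 fold change of -4.47 (SE 0.10, adjusted p = 3e-13). In each of these genes the lowest GO sample was at least an order of magnitude above the highest GO–Rg3–DOX sample. Untreated cells lay between the groups, at 14.4, 14.6 and 14.1 CPM for HILPDA, 4.87, 4.03 and 4.12 CPM for MIR210HG and 65.0, 59.2 and 66.1 CPM for BHLHE40. Positions and values of BHLHE40 carry a limit, because an antisense gene overlaps it and the counting is not stated to use strand.

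The other large falls had varied roles. PRR15L (chromosome 17 from 46029333 to 46035249), a proline-rich protein, was at 23.9, 25.1 and 23.2 CPM after GO and 0.783, 0.467 and 0.419 CPM after GO–Rg3–DOX, a log2 fold change of -5.44 (SE 0.17, adjusted p = 5.5e-12), the largest fall among called genes with at least 1 CPM over the 6 samples and no overlap between the groups. HCAR1, the lactate receptor, was at 13.8, 15.6 and 15.7 CPM after GO and 0.659, 1.08 and 0.419 CPM after GO–Rg3–DOX and CDX2, a gut-type transcription factor, at 112, 97.8 and 102.5 CPM after GO and 8.20, 5.21 and 5.49 CPM after GO–Rg3–DOX, with log2 fold changes of -4.37 and -4.05. The rule for naming these 3 genes required that their samples did not overlap. RFXAP, a subunit of the factor that turns on MHC class II genes, SH3TC2, a vesicle trafficking protein, and the small nucleolar RNA SNORD83A had low levels, at 3.29, 3.61 and 4.44 CPM for RFXAP, 4.07, 4.41 and 3.59 CPM for SH3TC2 and 1.997, 2.14 and 1.95 CPM for SNORD83A after GO. Their log2 fold changes were -4.19, -4.19 and -4.27.

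**Figure D2:**
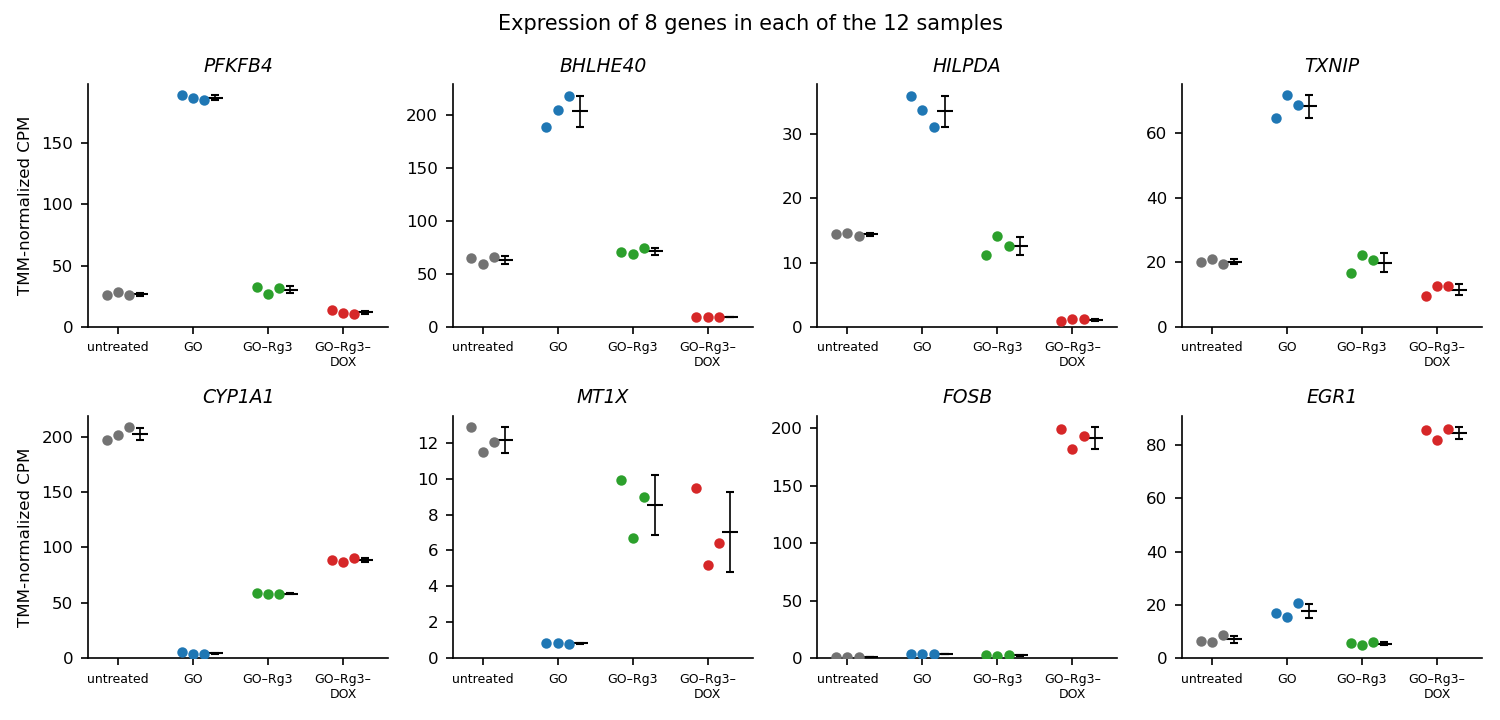
Levels of 8 genes in each of the 12 samples, as TMM-normalized CPM on axes that start at 0, with the mean and SD of each group (n = 3) as a black bar beside the points. PFKFB4, BHLHE40, HILPDA and TXNIP were highest after GO and lowest after GO–Rg3–DOX, CYP1A1 and MT1X were lowest after GO, and FOSB and EGR1 were highest after GO–Rg3–DOX.

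A set of genes lay on opposite sides of untreated cells in the 2 treatments, higher after GO and lower after GO–Rg3–DOX. Under the rule used for naming, the 5 with the largest such values were MIR210HG, BHLHE40, CHAC1, PLEKHA2 and MOB3A. Their log2 fold changes from untreated cells were 2.61 and -2.06 for MIR210HG, 1.69 and -2.78 for BHLHE40, 1.85 and -1.55 for the glutathione-degrading enzyme CHAC1, 1.49 and -1.58 for the lipid-binding adaptor PLEKHA2 and 1.43 and -2.31 for the kinase activator MOB3A, after GO and after GO–Rg3–DOX respectively. Against untreated cells 6.47% of the tested genes were called after GO (3.84% higher, 2.62% lower) and 30.8% after GO–Rg3–DOX (12.6% higher, 18.2% lower). The untreated samples serve both contrasts, so these pairs are not independent. MOB3A was at 61.1, 42.7 and 44.3 CPM after GO and 4.78, 3.31 and 2.97 CPM after GO–Rg3–DOX, PLEKHA2 at 54.2, 65.2 and 69.6 CPM after GO and 7.21, 8.05 and 7.24 CPM after GO–Rg3–DOX. No gene of at least 5 CPM met the rule in the reverse direction.

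Alpha-arrestin genes encode adaptor proteins that control nutrient transporters. Of 4 tested 3 fell (75%, against 18.4% of all tested genes) and 0 rose (median -2.06). TXNIP, which binds thioredoxin and limits glucose uptake, was at 64.6, 71.7 and 68.9 CPM after GO and 9.48, 12.51 and 12.54 CPM after GO–Rg3–DOX, with a log2 fold change of -2.57 (SE 0.13, adjusted p = 6.1e-10). Every GO–Rg3–DOX sample was below every GO sample, and untreated cells were at 20.2, 20.9 and 19.4 CPM. ARRDC3 (-1.96) and ARRDC2 (-2.15) fell as well. Of 16 circadian clock genes 4 fell (25%, against 18.4% of all tested genes) and 0 rose (median -0.50). Those that fell were BHLHE40, the nuclear receptor RORA (-2.68), the activator TEF (-2.13) and the repressor NR1D1 (-2.04). The period genes PER1 (-0.38) and PER2 (-0.56) and the activator DBP (0.25) were not called.

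CYP1A1 (chromosome 15 from 75011883 to 75017877), the detoxifying enzyme most used as a readout of AhR, was at 5.25, 4.25 and 3.96 CPM after GO and 88.6, 86.5 and 90.4 CPM after GO–Rg3–DOX. The samples did not overlap, with a log2 fold change of 4.31 (SE 0.11, adjusted p = 1.1e-12). Untreated cells had 197, 201 and 208 CPM and GO–Rg3-treated cells 58.9, 57.7 and 58.3 CPM, so both treated groups lay below untreated cells, with log2 fold changes of -5.50 for GO and -1.19 for GO–Rg3–DOX. Of 8 tested AhR targets 2 rose (25%, against 9.52% of all tested genes) and 0 fell. Those 2 were CYP1A1 and the actin regulator SCIN (1.10). The repressor TIPARP was lower, at 11.4, 14.6 and 14.6 CPM after GO and 5.69, 7.80 and 9.11 CPM after GO–Rg3–DOX, a log2 fold change of -0.85 that passed the adjusted p but not the fold threshold, and CYP1B1 had 0.41 with adjusted p = 0.15 by edgeR. AHRR, which represses AhR, was at 2.90, 1.98 and 2.04 CPM after GO and 1.73, 1.87 and 2.52 CPM after GO–Rg3–DOX, a log2 fold change of -0.16 with overlapping samples.

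Of 9 tested metallothionein and zinc response genes 5 rose (55.6%, against 9.52% of all tested genes) and 0 fell (median 1.83). Against untreated cells the list median was -2.71 after GO, with 1 gene called higher and 6 lower. After GO–Rg3–DOX it was -0.80, with 1 called higher and 2 lower. MT1X (chromosome 16 from 56716382 to 56718108) was at 0.862, 0.829 and 0.792 CPM after GO and 9.48, 5.18 and 6.41 CPM after GO–Rg3–DOX, a log2 fold change of 3.08 (SE 0.24, adjusted p = 3.7e-08). The 3 GO samples were nearly equal, while the GO–Rg3–DOX samples were more spread and all lay above them. MT2A, the most abundant metallothionein transcript here, was at 8.58, 6.5 and 7.58 CPM after GO and 29.3, 23.9 and 25.6 CPM after GO–Rg3–DOX, a log2 fold change of 1.80 (SE 0.29, adjusted p = 6.4e-05). The zinc exporter SLC30A1 was at 11.8, 13.8 and 11.7 CPM after GO and 41.04, 43.6 and 48.1 CPM after GO–Rg3–DOX, a log2 fold change of 1.83 (SE 0.11, adjusted p = 2e-09), and its untreated samples were at 82.8, 82.1 and 79.2 CPM. MT1E (3.77) and MT1F (1.94) rose too, but metallothionein genes are close paralogs that can share reads, which makes the split between them uncertain. In MT1X, MT2A and MT1E every sample of both treated groups lay below untreated cells, whose means were 12.1, 38.6 and 10.9 CPM. The zinc importer SLC39A10 was at 65.6, 86.1 and 83.3 CPM after GO and 45.0, 45.1 and 44.2 CPM after GO–Rg3–DOX, a log2 fold change of -0.81, and was not called.

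Immediate early genes moved in both directions at once. Of 25 tested, 7 rose and 7 fell, 28% each, against 9.52% higher and 18.4% lower of all tested genes. The median of 0.03 turned to -0.27 with library totals. EGR2 and EGR3, both counted as rises, reached 10 counts only after GO–Rg3–DOX. The share of rises is therefore partly set by the filter. FOSB (chromosome 19 from 45971253 to 45978437), an AP-1 subunit, was at 3.52, 3.45 and 3.54 CPM after GO and 199, 181 and 193 CPM after GO–Rg3–DOX, a log2 fold change of 5.77 (SE 0.12, adjusted p = 1.3e-13). All GO–Rg3–DOX samples stood far above every other sample of the series, with untreated cells at 1.53, 1.44 and 1.55 CPM. EGR1 (chromosome 5 from 137801168 to 137804992), a zinc finger factor of the growth factor response, was at 16.9, 15.5 and 20.6 CPM after GO and 85.8, 81.8 and 85.9 CPM after GO–Rg3–DOX, a log2 fold change of 2.26 (SE 0.14, adjusted p = 3e-09). Its paralog EGR2 was at 0.0392, 0.0267 and 0.0849 CPM after GO and 2.64, 4.49 and 5.34 CPM after GO–Rg3–DOX, with a log2 fold change of 6.25. EGR3 had 0 counts in all 3 GO samples and 2.39, 1.87 and 3.24 CPM after GO–Rg3–DOX, at least 26.6-fold higher when each GO library is set at 3 counts. JUNB (1.38), IER3 (1.35) and ATF3 (1.12) were the other 3 that rose. Among those that fell, the Krüppel-like factor KLF2 had -3.72, the AP-1 subunit JUND -3.09 and the response gene IER2 -1.31. JUN, a core subunit of AP-1, had -0.17 and was not called. Its partner FOS was at 14.9, 17.6 and 16.8 CPM after GO and 14.1, 16.9 and 19.2 CPM after GO–Rg3–DOX with adjusted p = 0.88 by edgeR, and MYC was at 30.7, 36.8 and 37.9 CPM after GO and 16.4, 21.2 and 21.8 CPM after GO–Rg3–DOX, a log2 fold change of -0.83 below the fold threshold.

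Feedback genes of MAP kinase signalling, which are transcribed in response to it and switch it off, were lower after GO–Rg3–DOX. Of 14 tested 8 fell (57.1%, against 18.4% of all tested genes) and 0 rose (median -1.21). SPRY1, an inhibitor of growth factor receptor signalling, was at 19.9, 21.7 and 22.04 CPM after GO and 1.94, 2.73 and 2.44 CPM after GO–Rg3–DOX, a log2 fold change of -3.15 (SE 0.14, adjusted p = 1.3e-10). DUSP6, the phosphatase of ERK, was at 76.2, 92.9 and 90.5 CPM after GO and 29.2, 30.3 and 37.1 CPM after GO–Rg3–DOX, a log2 fold change of -1.43 (SE 0.11, adjusted p = 3.1e-08). Neither gene had overlapping samples, and SPRY2 (-1.80) and PHLDA1 (-1.95) fell as well. SPRY4 had -0.93 and was not called.

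Other large rises started from very low levels in GO-treated cells. The genes of this paragraph reached 10 counts only in GO–Rg3–DOX samples, so they were tested only because they were high there. Their rises and p-values are therefore partly set by the filter. CXCR4, a chemokine receptor, was at 0.157, 0.134 and 0 CPM after GO and 5.73, 7.91 and 8.12 CPM after GO–Rg3–DOX, a log2 fold change of 6.25 (SE 0.40, adjusted p = 5.3e-09). The transcription factors INSM2 and MAFA had log2 fold changes of 6.63 and 6.24, from 0.0392, 0.0535 and 0.113 CPM and 0.117, 0.0267 and 0.0283 CPM after GO to 4.94, 8.59 and 8.73 CPM and 3.91, 4.42 and 4.08 CPM. The endothelial adhesion molecule SELE (5.70) and the exchange factor FGD5 (5.50, overlapped by an antisense gene) had 0 counts in at least 1 GO sample. LINC00691, a long noncoding RNA, had 0 counts in all 3 GO samples and 2.18, 2.73 and 1.72 CPM after GO–Rg3–DOX, at least 23.5-fold higher against 3 counts per GO library. AZU1, a granule protein of neutrophils, had 3 counts in the GO group as a whole, and the ratio of the groups was 68.6 with a 95% interval of 23.1 to 336 that covers counting error only.

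NF-kappaB target genes moved in both directions. Of 22 tested 6 rose and 6 fell (median -0.26). That is 27.3% in each direction, against 9.52% higher and 18.4% lower of all tested genes. The chemokine CXCL3 was at 8.62, 5.62 and 6.57 CPM after GO and 45.7, 50.6 and 57.1 CPM after GO–Rg3–DOX, a log2 fold change of 2.89 (SE 0.15, adjusted p = 6e-10), and CXCL1 was at 22.8, 18.9 and 16.7 CPM after GO and 109.9, 109.4 and 124 CPM after GO–Rg3–DOX, a log2 fold change of 2.56. CXCL2 (2.06), TNF (2.05), CXCL10 (1.44) and IL8 (1.06, whose samples overlapped) rose too. All 6 that rose encode secreted cytokines or chemokines, a grouping noticed after the values were seen, but the secreted CSF1 fell and the chemokine CCL20 was not called. BIRC3, an inhibitor of apoptosis, was at 22.1, 28.0 and 25.6 CPM after GO and 3.96, 3.95 and 4.19 CPM after GO–Rg3–DOX, a log2 fold change of -2.65 (SE 0.13, adjusted p = 4.3e-10). The inhibitor NFKBIE (-1.96), the coactivator BCL3 (-1.55), the growth factor CSF1 (-1.45), the antioxidant enzyme SOD2 (-1.15) and the A20 partner TNIP1 (-1.11) made up the rest of those that fell. The feedback inhibitors TNFAIP3 and NFKBIA were not called. TNFAIP3 was at 44.1, 56.2 and 54.5 CPM after GO and 35.97, 42.2 and 49.5 CPM after GO–Rg3–DOX, with overlapping samples and adjusted p = 0.057 by edgeR, and NFKBIA had a log2 fold change of -0.61. CCL20 was at 365, 302 and 300.4 CPM after GO and 358, 292 and 323 CPM after GO–Rg3–DOX, with 0.01. Of 20 acute-phase genes 4 (20%) rose and 2 (10%) fell, against 9.52% and 18.4% of all tested genes. The 2 that fell were SAA2 (-2.18) and the iron-binding LCN2 (-1.72). The fibrinogen chains FGB (1.13) and FGG (1.26), the complement factor CFB (1.09) and the iron hormone HAMP (2.25, under 1 CPM) rose. FGB, FGG and CFB lost the call with library totals alone. CRP (0.99), SAA1 (-0.39) and the haemoglobin scavenger HP (0.41) were not called.

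Part of the ATF4 programme, which raises amino acid supply and cell death factors under stress, was lower after GO–Rg3–DOX. Of 21 genes 8 fell (38.1%, against 18.4% of all tested genes) and 0 rose (median -0.48). Against untreated cells the list median was 0.42 after GO and 0.13 after GO–Rg3–DOX. CHAC1, which degrades glutathione, was at 20.8, 15.9 and 16.8 CPM after GO and 1.44, 1.94 and 1.64 CPM after GO–Rg3–DOX, a log2 fold change of -3.40 (SE 0.22, adjusted p = 5.4e-09). TRIB3, a pseudokinase that restrains ATF4, was at 195, 128 and 122 CPM after GO and 25.1, 18.6 and 21.4 CPM after GO–Rg3–DOX, a log2 fold change of -2.77 (SE 0.18, adjusted p = 4.6e-09), and GO replicate 1 was the highest sample in both genes. ATF4 itself (-1.67) and DDIT3 (-1.09), which encodes CHOP, fell. ASNS, asparagine synthetase, was at 79.9, 74.6 and 65.4 CPM after GO and 59.4, 46.3 and 52.3 CPM after GO–Rg3–DOX, a log2 fold change of -0.48 below the fold threshold.

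Chaperone genes of the cytosol and the endoplasmic reticulum (ER) showed single strong falls within lists that were mixed. DNAJB1, the HSP40 co-chaperone, was at 155, 151 and 142 CPM after GO and 17.8, 17.3 and 18.8 CPM after GO–Rg3–DOX, a log2 fold change of -3.05 (SE 0.09, adjusted p = 3.9e-12), with no overlap and narrow groups. HSPA1B (-1.26) and HSPA8 (-1.17) also fell, whereas HSPA6 (1.68), CRYAB (1.04) and HSPB1 (1.02) rose among the 19 heat shock genes. These 3 falls and 3 rises are 15.8% each, against 18.4% lower and 9.52% higher of all tested genes. HSPA1A (-0.19), a near-identical copy of HSPA1B that can share its reads, and HSPH1 (0.32) were not called. XBP1, the transcription factor of the unfolded protein response, was at 445, 403 and 385 CPM after GO and 87.4, 83.3 and 95.05 CPM after GO–Rg3–DOX, a log2 fold change of -2.21 (SE 0.09, adjusted p = 1.2e-10). HERPUD1, an ER degradation factor, was at 94.7, 101.7 and 98.8 CPM after GO and 23.5, 20.2 and 20.1 CPM after GO–Rg3–DOX, a log2 fold change of -2.21. Those 2 fell and the chaperones PDIA6 (1.04) and DNAJB11 (1.10) rose among 19 ER genes. That is 10.5% in each direction, against 18.4% lower and 9.52% higher of all tested genes. HSPA5, the main ER chaperone, was at 1329, 1297 and 1223 CPM after GO and 1698, 1460.0 and 1506 CPM after GO–Rg3–DOX, a log2 fold change of 0.28 that was not called. SDF2L1 (0.37) and DNAJB9 (-0.75) were not called either.

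NRF2 targets and glutathione genes had a median of 0.80 over 25 genes, of which 3 (12%) rose and 2 (8%) fell. Of all tested genes 9.52% rose and 18.4% fell. Against untreated cells the list median was -0.40 after GO and 0.22 after GO–Rg3–DOX. The ferritin subunits FTL and FTH1 rose by log2 fold changes of 1.19 and 1.14, and FTL went from 5580.0, 3592 and 3483 CPM after GO to 12710.0, 7921 and 8212 CPM after GO–Rg3–DOX. The aldo-keto reductase AKR1C1 (1.31) was the other one to rise. OSGIN1, a growth inhibitor, was at 30.1, 21.6 and 20.8 CPM after GO and 3.71, 4.17 and 3.96 CPM after GO–Rg3–DOX, a log2 fold change of -2.61 (SE 0.25, adjusted p = 3e-07), and the cystine transporter SLC7A11 was at 39.6, 52.9 and 46.2 CPM after GO and 13.9, 13.5 and 13.0 CPM after GO–Rg3–DOX, a log2 fold change of -1.78 (SE 0.13, adjusted p = 1.3e-08). Both were without overlap. TXNRD1 (0.50) and HMOX1 (-0.84) passed the adjusted p but not the fold threshold, and GCLM, a subunit of the glutathione-producing ligase, had 0.18 with adjusted p = 0.22 by edgeR. Enzymes that reduce anthracyclines and their exporters had a median of 0.76 over 15 genes. Of these AKR1C3 (1.62), AKR1C2 (1.35) and AKR1C1 rose (20%, against 9.52% of all tested genes) and 0 fell. The aldo-keto reductases are close paralogs. CBR1, the main carbonyl reductase, had 0.76 and was not called. ABCB1, the doxorubicin exporter, was at 195, 258 and 243 CPM after GO and 409, 375 and 398 CPM after GO–Rg3–DOX, a log2 fold change of 0.76 that was not called.

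Targets of p53 did not rise together. Of 25 tested 2 rose and 6 fell (24.0%, against 18.4% of all tested genes). Their median was -0.32, -0.19 without GO replicate 1 and -0.59 with library totals. The hepatoma line Huh7 is known to carry mutant p53. MDM2, the ligase that degrades p53, was at 48.0, 48.3 and 48.7 CPM after GO and 17.7, 15.3 and 14.2 CPM after GO–Rg3–DOX, a log2 fold change of -1.62 (SE 0.10, adjusted p = 5.4e-09). BBC3, the death factor PUMA, was at 5.99, 3.13 and 3.40 CPM after GO and 0.824, 0.324 and 0.496 CPM after GO–Rg3–DOX, a log2 fold change of -2.92 (SE 0.38, adjusted p = 8.2e-06), and POLH, a translesion polymerase, had -1.63. All samples of MDM2 and BBC3 were higher after GO. CDKN1A, the cell cycle inhibitor p21, was at 21.2, 23.6 and 24.4 CPM after GO and 23.3, 26.0 and 26.4 CPM after GO–Rg3–DOX, and its samples overlapped (adjusted p = 0.27 by edgeR). PLK2 (1.04) and CMBL (1.04) were the 2 that rose. The stress cytokine GDF15 had -0.82 and was not called.

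Among 24 genes of the BCL2 family and death receptors 2 rose and 7 fell (29.2%, against 18.4% of all tested genes), with a median of -0.47. BCL2L1, a survival protein, had a log2 fold change of -0.76 and the pro-death PMAIP1 had 0.53, and neither was called. MCL1, a short-lived survival protein, was at 253, 249.9 and 247 CPM after GO and 79.8, 91.5 and 106 CPM after GO–Rg3–DOX, a log2 fold change of -1.43 (SE 0.10, adjusted p = 1.8e-08). TNFRSF1A, the TNF receptor, was at 102.6, 83.9 and 89.4 CPM after GO and 12.7, 11.5 and 11.4 CPM after GO–Rg3–DOX, a log2 fold change of -2.95 (SE 0.13, adjusted p = 1.3e-10), with the groups widely apart. The pro-death BIK was at 3.603, 2.33 and 2.04 CPM after GO and 0.165, 0.324 and 0.191 CPM after GO–Rg3–DOX, a log2 fold change of -3.49. The pro-death BAD (1.67) and the ligand TNFSF14 (3.18, under 1 CPM) rose.

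Of 32 mitotic genes 9 fell (28.1%, against 18.4% of all tested genes) and 0 rose (median -0.49). TTK, the spindle checkpoint kinase, was at 26.1, 34.5 and 30.6 CPM after GO and 4.53, 4.53 and 5.45 CPM after GO–Rg3–DOX, a log2 fold change of -2.65 (SE 0.13, adjusted p = 5e-10). KIF11, the motor that separates spindle poles, had -1.97, and PLK1 was at 226, 195 and 211 CPM after GO and 81.8, 68.9 and 63.5 CPM after GO–Rg3–DOX, with -1.56. CCNB1, cyclin B1, was at 158, 159 and 145 CPM after GO and 95.5, 97.1 and 91.7 CPM after GO–Rg3–DOX, a log2 fold change of -0.70 below the fold threshold, and CDC20, which activates the anaphase-promoting complex, had -0.05. Of 44 DNA damage and repair genes 7 fell and 0 rose, with a median of -0.03 that was 0.02 with RLE scaling. The 7 are 15.9%, below the 18.4% of all tested genes, and at any fold 15 genes of the list were higher and 13 lower at an adjusted p below 0.01 by edgeR. The ubiquitin ligase RNF168 was at 53.3, 46.9 and 50.8 CPM after GO and 15.2, 14.0 and 11.2 CPM after GO–Rg3–DOX, a log2 fold change of -1.90 (SE 0.12, adjusted p = 3.9e-09), and XRCC2 (-1.73) and BRCA1 (-1.05) fell, while FANCD2 (0.35) and the kinase ATR (-0.14) were not called.

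Replication-dependent histone genes were the list with the highest share of rises, 24 of 33 with 0 falls (median 1.78). That is 72.7%, against 9.52% of all tested genes. The other 56 of the 89 members were too low to be tested. Some tested members passed the count filter only through the GO–Rg3–DOX samples, so this share and median are partly set by the filter. HIST1H4C, for example, had 14, 28 and 21 counts after GO–Rg3–DOX and at most 6 in any other sample. HIST1H3B was at 0.157, 0.0267 and 0.141 CPM after GO and 2.31, 2.12 and 2.36 CPM after GO–Rg3–DOX, a log2 fold change of 4.42 (SE 0.42, adjusted p = 2.9e-07). HIST1H3H was at 0.431, 0.348 and 0.311 CPM after GO and 1.85, 2.66 and 2.36 CPM after GO–Rg3–DOX, a log2 fold change of 2.67, and HIST1H4C, at 0.235, 0.0803 and 0.0566 CPM after GO and 0.577, 1.01 and 0.801 CPM after GO–Rg3–DOX, had 2.78. In these 3 genes no GO sample reached a GO–Rg3–DOX sample. HIST1H1C, at 21.4, 12.8 and 12.6 CPM after GO and 36.01, 24.8 and 27.9 CPM after GO–Rg3–DOX, had 0.93 and was not called, nor was HIST2H2AC (1.11, adjusted p = 0.019 by edgeR). Most of these mRNAs normally end in a stem-loop without a poly(A) tail, the libraries were made from polyadenylated RNA, and the family has near-identical copies, so the levels are low and uncertain. SLBP, which binds that stem-loop, went the other way, from 74.5, 85.5 and 73.5 CPM after GO to 27.8, 27.3 and 26.1 CPM after GO–Rg3–DOX, a log2 fold change of -1.52 (SE 0.10, adjusted p = 4.3e-09). In the DNA replication and E2F list 1 of 31 rose and 3 (9.68%, against 18.4% of all tested genes) fell. Those that fell were SLBP, the chromatin assembly subunit CHAF1A (-1.26) and the licensing factor CDT1 (-1.04). The median of that list was 0.22 and turned to -0.08 with library totals. TYMS, thymidylate synthase, was at 95.6, 88.4 and 82.5 CPM after GO and 157, 158 and 168 CPM after GO–Rg3–DOX, a log2 fold change of 0.86 below the fold threshold. CDC6 (-0.47), E2F1 (0.74) and CCNE2 (0.26) were not called.

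POLR2A, the large subunit of RNA polymerase II, was at 629, 589.6 and 609.9 CPM after GO and 1477, 1332 and 1415 CPM after GO–Rg3–DOX, a log2 fold change of 1.21 (SE 0.09, adjusted p = 3.6e-08). Every GO–Rg3–DOX sample exceeded every GO sample, untreated cells were at 397, 454 and 447 CPM, and the call was lost with library totals alone. Of 86 polymerase, general factor and Mediator genes 8 rose and 19 fell, shares of 9.30% and 22.1% that are close to the 9.52% and 18.4% of all tested genes (median -0.07). The Mediator subunits MED7, at 8.03, 9.47 and 8.74 CPM after GO and 1.24, 0.898 and 1.30 CPM after GO–Rg3–DOX, and MED9 fell by log2 fold changes of -2.94 and -2.24. The kinases CDK12 (-1.51), CDK13 (-1.59) and CDK7 (-1.47) and the elongation cyclins CCNT1 (-1.33) and CCNT2 (-1.35) fell, and HEXIM1 (1.17), which restrains the elongation factor P-TEFb, rose. CDK9, the kinase of P-TEFb (0.23), MED13 (-0.62) and TAF1 (-0.82) were not called.

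Zinc finger genes of the ZNF family, mostly KRAB repressors of transposons, were the largest list and fell widely. Of 400 tested 233 fell (58.3%, against 18.4% of all tested genes), with a median of -1.26. The 4 that rose were ZNF185, ZNF367, ZNF580 and ZNF358. ZNF792 was at 9.20, 10 and 8.71 CPM after GO and 0.494, 0.503 and 0.801 CPM after GO–Rg3–DOX, a log2 fold change of -3.95 (SE 0.17, adjusted p = 1.3e-10). ZNF112 had -3.46, ZNF273 -1.94 and ZNF263, which was at 40.97, 36.1 and 38.9 CPM after GO and 17.2, 16.1 and 19.0 CPM after GO–Rg3–DOX, -1.15. None of these 4 falling genes had overlapping samples. Of 16 host genes of small nucleolar RNAs 6 (37.5%) fell and 1 (6.25%) rose, SNHG9 (1.04). The shares of all tested genes were 18.4% and 9.52%. SNHG7 was at 50.8, 42.96 and 49.6 CPM after GO and 9.93, 11.7 and 13.2 CPM after GO–Rg3–DOX, with -2.04, GAS5 had -1.27, SNHG12 -1.55 and SNHG15 -1.93, and SNHG1 was at 175, 178 and 185 CPM after GO and 211, 256 and 278 CPM after GO–Rg3–DOX, a log2 fold change of 0.47 that was not called.

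**Figure D3:**
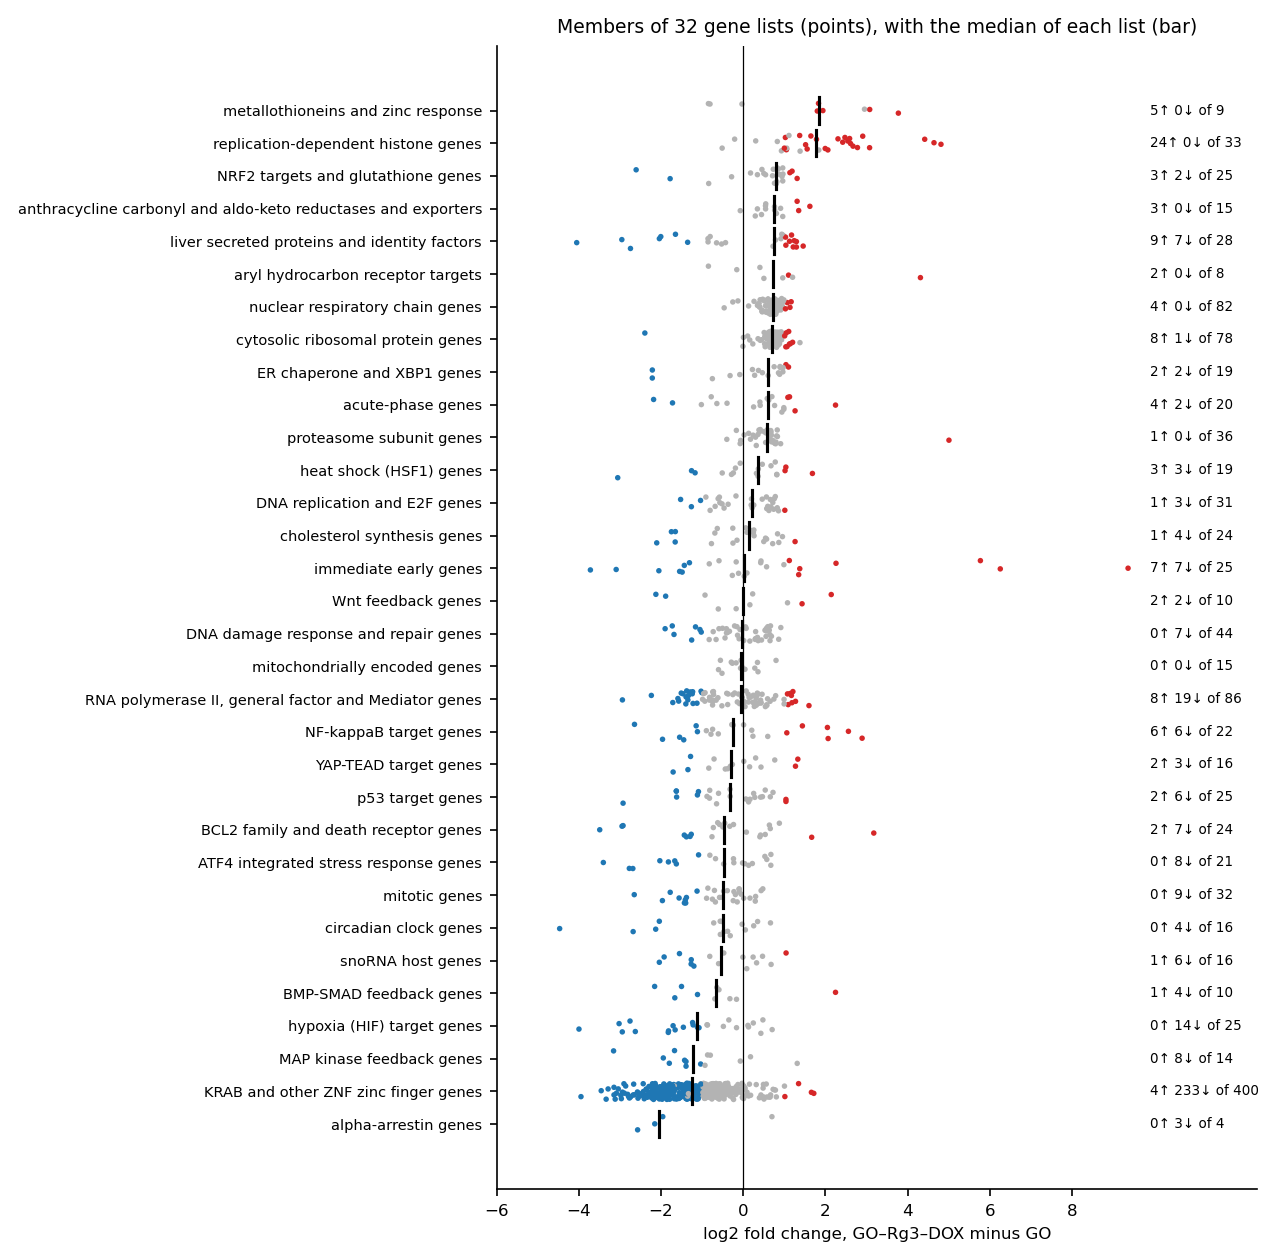
Log2 fold changes, GO–Rg3–DOX minus GO, of every tested member of 32 gene lists, ordered by list median (black bar). Red points were called higher, blue points called lower and grey points not called, and the numbers at the right give the calls in each direction and the members tested. Metallothionein and histone lists lay highest, and alpha-arrestin, ZNF, MAP kinase feedback and HIF lists lowest.

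Genes of liver products and liver identity moved in both directions. Of 28 tested 9 (32.1%) rose and 7 (25%) fell, against 9.52% and 18.4% of all tested genes (median 0.75). ALB, serum albumin, was at 2301, 2988 and 2515 CPM after GO and 4986, 6553 and 6892 CPM after GO–Rg3–DOX, a log2 fold change of 1.24 (SE 0.14, adjusted p = 1.3e-06), and AFP, the fetal albumin, was at 4801, 7039 and 5669 CPM after GO and 10880.0, 15470.0 and 16540.0 CPM after GO–Rg3–DOX, a log2 fold change of 1.29 (SE 0.17, adjusted p = 6.7e-06). Both were without overlap. Untreated cells had 4184, 4111 and 4123 CPM of ALB and 12440.0, 12260.0 and 12170.0 CPM of AFP. The other 7 that rose also encode plasma proteins, APOE (1.46), AHSG (1.29), APOC3 (1.22), APOH (1.18), FGB, TF (1.04) and APOA2 (1.03). With library totals alone, 8 of the 9 that rose, all but APOE, lost the call. The 7 that fell were all transcription factors, a division noticed after the values were seen: CDX2, FOXA1 (-2.95), FOXA3 (-2.74), GATA6 (-2.04), FOXA2 (-2.01), HNF4A (-1.65) and NR5A2 (-1.35). FOXA1, a pioneer factor, was at 37.7, 42.1 and 42.2 CPM after GO and 5.19, 5.32 and 5.22 CPM after GO–Rg3–DOX, and HNF4A, the main hepatocyte regulator, at 571, 546 and 574 CPM after GO and 209, 172 and 158 CPM after GO–Rg3–DOX. Their groups did not overlap. APOB, the main protein of low-density lipoprotein, had 0.72 and was not called.

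Of 10 BMP-SMAD feedback genes 4 (40%) fell and 1 (10%), HAMP, rose, against 18.4% and 9.52% of all tested genes (median -0.67). ID3, an inhibitor of helix-loop-helix factors, was at 35.4, 45.0 and 47.0 CPM after GO and 8.24, 8.84 and 11.5 CPM after GO–Rg3–DOX, a log2 fold change of -2.16 (SE 0.16, adjusted p = 1.7e-08), and untreated cells were at 155, 144 and 159 CPM. ID1 (-1.67), SMAD6 (-1.50) and ID2 (-1.11) fell as well. In the Wnt list of 10, the inhibitor DKK1 rose from 2.90, 3.37 and 3.42 CPM after GO to 11.99, 15.7 and 15.2 CPM after GO–Rg3–DOX, a log2 fold change of 2.14 (SE 0.14, adjusted p = 7.1e-09), against 90.2, 90.2 and 92.6 CPM in untreated cells. The stem cell receptor LGR5 (1.43) rose, and the receptor ligases RNF43 (-2.13) and ZNRF3 (-1.89) fell, while AXIN2 had 0.23 and was not called. The 2 that fell are 20% of the Wnt list, close to the 18.4% of all tested genes. Of 16 YAP-TEAD targets 2 rose and 3 fell, and the 18.8% that fell is close to the 18.4% of all tested genes. The 2 that rose were NT5E (1.33) and F3 (1.27), and the 3 that fell were the angiomotins AMOTL1 (-1.71) and AMOTL2 (-1.28) and the adaptor AJUBA (-1.35). CTGF was at 271, 208 and 218 CPM after GO and 217, 177 and 186 CPM after GO–Rg3–DOX, with overlapping samples and adjusted p = 0.063 by edgeR, and CYR61 (0.43) and ANKRD1 (0.01) were not called.

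Of 24 cholesterol synthesis genes 4 fell (16.7%, against 18.4% of all tested genes) and 1 rose, and their median of 0.15 turned to -0.14 with library totals. SQLE, squalene epoxidase, was at 85.6, 107 and 102.1 CPM after GO and 22.7, 21.9 and 23.9 CPM after GO–Rg3–DOX, a log2 fold change of -2.10 (SE 0.10, adjusted p = 3.9e-10). In SQLE the samples of each group were close together and the groups did not overlap. The enzymes HSD17B7 (-1.75) and MVK (-1.65) fell too, and INSIG1, which holds back sterol synthesis, had -0.69 and was not called.

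Both treatments had a high share of counts from mitochondrially encoded genes, and the 2 groups overlapped in it. The share was 24.1%, 12.1% and 14.8% of all counts in the GO samples and 19.4%, 13.9% and 12.8% in the GO–Rg3–DOX samples, against 5.81% ± 0.489 in untreated cells (SD, n = 3). Replicate 1 was the highest sample in both. The difference of means, GO–Rg3–DOX minus GO, was -1.63 percentage points (two-sided exact permutation test over 3 against 3 samples, p = 0.7, with 0.1 the smallest p possible), and without GO replicate 1 it was 1.91. Of the 15 mitochondrially encoded genes 0 were called, and their log2 fold changes ran from -0.60 to 0.80 (median -0.05, turning to 0.01 with RLE scaling). MT-CO1, a subunit of cytochrome c oxidase, was at 51040.0, 23200.0 and 29210.0 CPM after GO and 60080.0, 36700.0 and 35890.0 CPM after GO–Rg3–DOX, and MT-ND1, a subunit of complex I, at 9372, 4026 and 5142 CPM after GO and 5731, 3587 and 3295 CPM after GO–Rg3–DOX. Their log2 fold changes were 0.36 and -0.56, with adjusted p = 0.2 and 0.061 by edgeR. MT-ATP6 (-0.03), MT-ND4 (-0.05) and MT-CYB (-0.03) were not called.

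Nuclear genes of the respiratory chain did differ, in small steps in 1 direction. The 82 tested were matched by symbol and include the antisense RNAs NDUFA6-AS1 and NDUFB2-AS1 (neither called). Of them 4 rose (4.88%, against 9.52% of all tested genes) and 0 fell, with a median of 0.73. At any fold 58 were higher and 0 lower at an adjusted p below 0.01 by edgeR, which 55.9% of all tested genes passed in either direction. NDUFA4, a subunit of cytochrome c oxidase, was at 176, 108 and 107 CPM after GO and 232, 233 and 219 CPM after GO–Rg3–DOX, a log2 fold change of 0.81, and NDUFB6, of complex I, was at 26.8, 19.0 and 18.9 CPM after GO and 31.8, 38.9 and 40.95 CPM after GO–Rg3–DOX, with 0.79. Both lay below untreated cells, at 279, 301 and 296 CPM for NDUFA4 and 46.5, 45.2 and 42.98 CPM for NDUFB6. COX7B had 0.56 with adjusted p = 0.024 by edgeR. The 4 called were NDUFA2 (1.17), NDUFB7 (1.14), ATP5D (1.07) and COX8A (1.03), and all 4 lost the call with library totals alone, where the median of the list was 0.45. Of 78 ribosomal protein genes 8 rose (10.3%, close to the 9.52% of all tested genes) and 1, RPL36A (-2.39), fell (median 0.71, 0.43 with library totals). At any fold 50 of these were higher and 1 lower at an adjusted p below 0.01 by edgeR. RPS2 was at 1504, 1052 and 1046 CPM after GO and 3188, 2583 and 2510.0 CPM after GO–Rg3–DOX, a log2 fold change of 1.20, and has many pseudogene copies, while RPL3 (0.92) and RPS3 (0.65) were not called. Of 36 proteasome genes 1 rose (2.78%, against 9.52% of all tested genes), PSMB11 (5.005, under 1 CPM), and 0 fell. Their median was 0.57, and 0.28 with library totals. At any fold 24 were higher and 1 lower at an adjusted p below 0.01 by edgeR. PSMB5 (0.68), PSMA1 (0.32) and PSMD11 (-0.06) were not called.

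**Figure D4:**
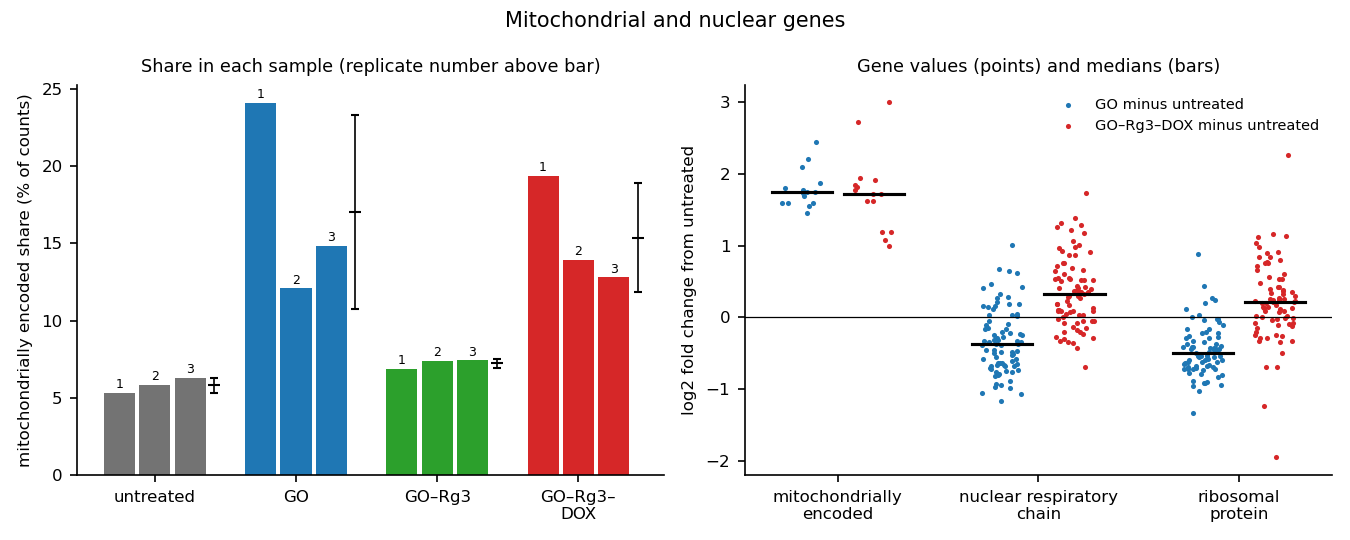
Left, the share of counts from mitochondrially encoded genes in each of the 12 samples (percent, bars from 0, replicate number above each bar), with the mean and SD of each group beside the bars. Right, log2 fold changes from untreated cells of 15 mitochondrially encoded, 82 nuclear respiratory chain and 78 ribosomal protein genes after GO (blue) and after GO–Rg3–DOX (red), with medians as bars. The mitochondrial medians were 1.75 and 1.72, and the nuclear respiratory chain medians were -0.37 and 0.33.

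Differences varied with the length, exon number and GC content of transcripts. In 10 bins of transcript length the median log2 fold change was 0.32 for the shortest transcripts (up to 808 bases) and -0.42 for the longest (from 7057 bases), and the share called lower went from 12.1% to 26.3%. Genes with 2 exons had a median of -0.56 and 30.7% of them were lower, while genes with 9 to 16 exons had a median of 0.09. In 10 bins of GC content the median went from -0.23 in the lowest to 0.32 in the highest. Across 16310 genes, which are not independent replicates, Spearman's correlation of the log2 fold change was -0.21 with transcript length, 0.14 with GC content and 0.09 with exon number, and across 16622 genes it was -0.05 with gene span. Offsets for GC content or length changed the counts of calls by less than 1.5 times.

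**Figure D5:**
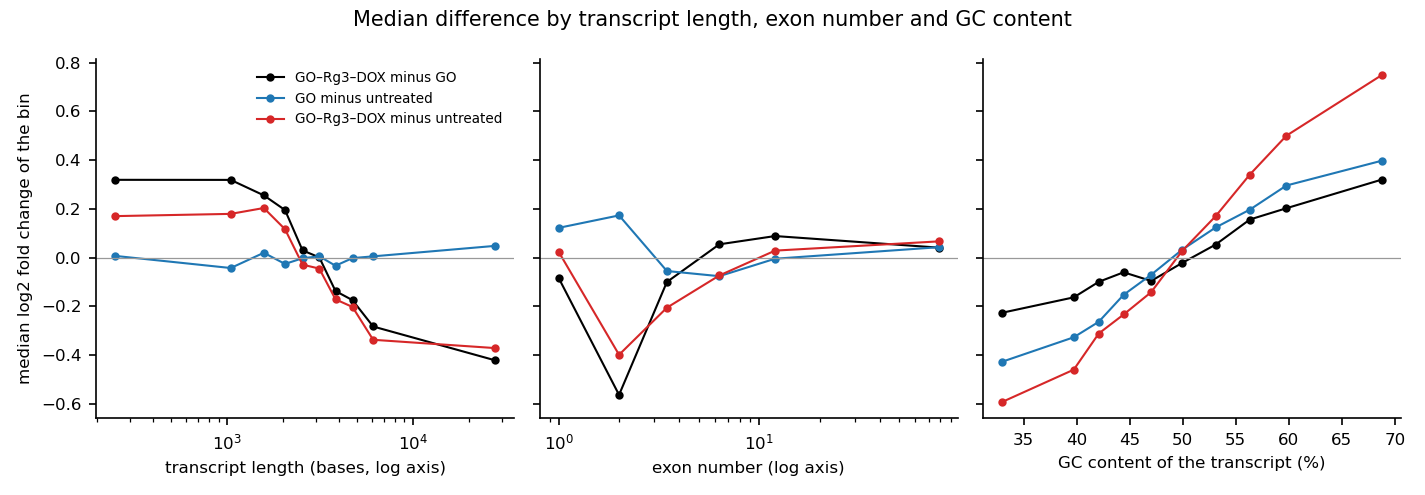
Median log2 fold change of genes binned by transcript length (bases, log axis), exon number (log axis) and GC content (percent), for GO–Rg3–DOX minus GO (black), GO minus untreated (blue) and GO–Rg3–DOX minus untreated (red), contrasts that share samples. The black line falls from 0.32 to -0.42 with transcript length, and its lowest point over exon number is at 2 exons.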

How the data were processed

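RNA of Huh7 cells was measured in 12 samples, of which the 6 treated with GO or GO–Rg3–DOX were compared. The authors made stranded mRNA libraries, ran the NGI RNAseq pipeline against GRCh37 with featureCounts as the counter, and the deposited values are unnormalized counts. The annotation release and the strand setting of the counting are not given in the sources used here, and 112 of the 247 genes named overlap another annotated gene, so that reads may be shared. The study's filter, 10 counts in 3 or more of the 12 samples, was applied. Counts were scaled by TMM in edgeR 4.0.16 (R 4.3.3) and all 12 samples were fitted with the quasi-likelihood test, with group means only and the contrast GO–Rg3–DOX minus GO. The study used DESeq2, which was run as an alternative (1.42.0). The thresholds, an adjusted p of 0.01 and a log2 fold change of 1, are the study's.

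Members, lists and named genes were chosen with earlier results of these data known. Named genes were the 10 largest rises and falls among called genes with no overlap between the groups and with at least 1 CPM over the 6 samples, preset members of 32 lists with the 2 called members of largest change in each, and the 5 genes with the largest opposite changes from untreated cells. Further called members of a list were named after their values were seen, and a few members are not reported here. Other scalings, filters, sample sets, offsets and a replicate block were tried. Lists are described by counts and medians, with no set test. Mitochondrial shares were compared by exact permutation with scipy 1.17.1. Standard errors come from the quasi-likelihood F statistic. Gene positions, lengths, exons and GC content came from GENCODE 44 lifted to GRCh37, and promoter windows from RefSeq. On simulated data for this comparison (17092 genes, of which 200 were shifted by 2 on the log2 scale) the test recovered 200 and made 0 false calls. The shifted genes were well counted, few, and split evenly between up and down. The simulation therefore does not cover low counts, the many and uneven calls of these data or a sample that stands apart like GO replicate 1. Depth was 28697698 to 34755740 counts in the 6 samples, and since no molecular identifiers were used, intervals and lower bounds cover counting error only.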

Additional observations from a re-analysis of the deposited data

How the results depend on the processing

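Of the 175 called genes named, 0 changed sign under any alternative run and 34 lost the call under at least 1. Counts of higher and lower genes stayed within 1.5 times of 1628 and 3148 except for the higher genes with library totals alone (841) or with 10 counts required in every sample (995), and with a log2 threshold of 2 (464 higher, 853 lower). With 1 replicate left out they were 1472 to 1939 higher and 2964 to 3225 lower, the most without GO replicate 1. The difference in the mitochondrially encoded share of counts, -1.63 percentage points, ranged from -4.09 to 1.91 with 1 replicate left out and turned positive without GO replicate 1. The groups share replicate numbers, and same-numbered samples of the 2 groups correlated at 0.25, 0.02 and 0.16 in their deviations from the group means. Samples with different numbers correlated at -0.26 to 0.21, the highest for GO replicate 2 with GO–Rg3–DOX replicate 3. The labels do not tie numbers to a culture or day, so whether same-numbered samples were paired is not known. With the replicate block 1669 genes were higher and 3148 lower, and no call of a named gene was lost. Library totals alone ended 31 calls of named genes, all of them rises, a transcript length offset 18, no filter 10 and a GC content offset 8. Without GO replicate 1 the calls of DDIT3, ZNF185, PDIA6 and CDT1 were lost, without GO replicate 2 those of NDUFB7, BRCA1, COX8A, ATP5D, IL8, CRYAB, HSPB1, APOA2 and SNHG9, and without GO replicate 3 those of COX8A, ATP5D, PLK2, ZNF185, IL8, CRYAB, HSPB1, APOA2, TF and SNHG9. Without GO–Rg3–DOX replicate 1 COX8A, ATP5D, FTL, CMBL, HSPB1, APOA2 and SNHG9 lost the call, without replicate 2 FTH1, ZNF185, IL8, CRYAB and CDT1, and without replicate 3 SCIN, PLK2, IL8 and CDT1. The causes of these shifts were not tested. Depth was about equal between the groups, and genes near 0 counts after GO have fitted values that depend on the prior count.

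Of the genes named that were not called, 15 passed both thresholds in at least 1 alternative. With library totals alone these were TIPARP, HMOX1, GDF15, MYC, SPRY4, DNAJB9, BCL2L1, TAF1 and SLC39A10, all lower, and under other alternatives NDUFA4, HIST2H2AC, HIST1H1C, RPL3, SNORD17 and APOB. A further 19 genes not called changed sign in some alternative, so no direction can be given for them. With library totals alone the values were -0.13 for GCLM, -0.17 for CDKN1A, -0.27 for FOS, -0.27 for ANKRD1, -0.078 for AXIN2, -0.17 for NDRG1, -0.28 for CCL20, -0.023 for HSPA5, -0.043 for CCNE2, -0.064 for CDK9, -0.046 for DBP and -0.049 for PGK1. With RLE scaling the values were 0.030 for MT-ATP6, 0.0061 for MT-ND4, 0.026 for MT-CYB and 0.00023 for CDC20. With DESeq2 the values were 0.030 for MT-ATP6, 0.0061 for MT-ND4, 0.026 for MT-CYB and 0.00027 for CDC20. Without a filter the values were -0.029 for FOS, -0.040 for ANKRD1 and -0.044 for CCL20. With mitochondrially encoded genes left out the values were -0.0077 for ANKRD1 and -0.013 for CCL20. With only the 6 samples compared the values were -0.0081 for ANKRD1 and -0.013 for CCL20. With the replicate block the values were 0.0017 for MT-ATP6. With a GC content offset the values were 0.032 for MT-ATP6, 0.0098 for MT-ND4, 0.016 for MT-CYB, -0.0082 for FOS, 0.014 for ATR and -0.019 for DBP. With a GC content offset and the replicate block the values were 0.077 for MT-ATP6, 0.049 for MT-ND4, 0.050 for MT-CYB, -0.0083 for FOS, 0.015 for ATR and -0.048 for DBP. With a transcript length offset the values were 0.069 for AHRR, -0.086 for FOS, -0.14 for ANKRD1, -0.25 for CCL20, 0.17 for ATR and 0.029 for PSMD11. With a transcript length offset and the replicate block the values were 0.069 for AHRR, -0.086 for FOS, -0.14 for ANKRD1, -0.25 for CCL20, 0.17 for ATR and 0.029 for PSMD11. With each replicate left out in turn the values ran from -0.39 to 0.49 for MT-ATP6, from -0.34 to 0.41 for MT-ND4, from -0.31 to 0.39 for MT-CYB, from -0.34 to 0.024 for AHRR, from -0.087 to 0.13 for FOS, from -0.074 to 0.12 for ANKRD1, from -0.068 to 0.11 for CCL20, from -0.10 to 0.026 for CDC20, from -0.030 to 0.50 for CCNE2, from -0.29 to 0.012 for ATR and from -0.16 to 0.010 for PSMD11.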

Other observations

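Small RNAs that are cut from longer transcripts were lower after GO–Rg3–DOX. Small nucleolar RNAs guide the modification of ribosomal RNA. Of 66 tested genes annotated as such, 38 (57.6%) fell and 2 (3.03%) rose, against 18.4% and 9.52% of all tested genes. Their median log2 fold change was -1.71 against 0.02 over 13344 protein-coding genes, of which 1198 rose and 2430 fell. SNORA33 was at 4.70, 3.58 and 4.25 CPM after GO and 0.865, 0.755 and 0.496 CPM after GO–Rg3–DOX, a log2 fold change of -2.56 (SE 0.25, adjusted p = 3.9e-07) by edgeR, and SNORD104 was at 3.96, 2.81 and 3.68 CPM after GO and 1.32, 1.01 and 1.14 CPM after GO–Rg3–DOX, with -1.58. Neither gene had overlapping samples, and both were chosen after their values were seen. SNORD17 was the other way, at 2.35, 5.11 and 5.91 CPM after GO and 7.62, 8.12 and 8.92 CPM after GO–Rg3–DOX, and was not called. Of 40 microRNA genes 13 (32.5%) fell and 3 (7.5%) rose (median -1.34). Processed pseudogenes had more rises than falls, 97 against 48 of 474 (20.5% and 10.1%, median 0.46). Long noncoding RNAs had 229 rises and 407 falls of 2102 (median -0.21). Their shares, 10.9% and 19.4%, are close to the 9.52% and 18.4% of all tested genes. Most small nucleolar RNAs normally carry no poly(A) tail and lie inside host genes.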
